A study of Homo sapiens with 15 samples.

Results

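The 7 genes described here encode proteins of neuronal adhesion and of the neurite, the outgrowth that becomes an axon or a dendrite. They are the IgLON genes OPCML, NTM, LSAMP and NEGR1, the contactin gene CNTN3, and the neurite genes GAP43 and MAP2. They were measured in atrial cardiomyocytes in which ATRNL1, the gene of the membrane protein attractin-like 1, was lowered or raised. The genes were taken by symbol from a table of 58780 genes. OPCML, CNTN3, GAP43 and MAP2 were chosen by their log2 fold changes with the siRNAs, being higher after ATRNL1 knockdown in these same libraries. Their knockdown values are therefore given as a description, with no test. NTM, LSAMP and NEGR1 were added as relatives of OPCML, and were tested in every comparison. All 7 were among the 24659 genes kept for testing, although NTM had 6 to 28 reads per library.

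IgLONs are small cell adhesion molecules made of immunoglobulin domains and held on the outer membrane by a lipid anchor. They bind each other on neighbouring neurons and take part in neurite growth and synapse formation. Contactins are larger lipid-anchored adhesion molecules, with immunoglobulin and fibronectin domains, that act on axons together with partners such as the CNTNAP proteins. GAP43 is a protein of the growth cone, the moving tip of an axon, and MAP2 binds microtubules, chiefly in dendrites.

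The cells came from H7, an established human embryonic stem cell line, and were guided to an atrial fate as floating spheroids that received retinoids. There were 5 groups of 3 libraries, all on the same unedited genotype, labelled wt. They were siRNA-1 against ATRNL1, siRNA-2 against ATRNL1, a scramble siRNA, a lentivirus with the short isoform of ATRNL1, and a control lentivirus. Per the labels' protocols, spheroids were dissociated on day 17 and transduced cells were selected with puromycin. The siRNAs were compared with scramble siRNA, and the ATRNL1 lentivirus with the control lentivirus. A single cell line cannot show variation between donors, and the labels do not say whether the libraries of a group came from separate cultures. The p-values therefore measure only the spread between these libraries, which may be technical.

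Libraries held 37078568 to 108663135 counts, and levels are given as CPM, read counts scaled to a common library size with TMM factors. ATRNL1 averaged 9.16 ± 0.986 CPM in siRNA-1 cells and 4.99 ± 0.406 CPM in siRNA-2 cells, against 15.3 ± 1.52 CPM with scramble (SD, n = 3 each). It averaged 763 ± 149 CPM with the ATRNL1 lentivirus, against 28 ± 1.11 CPM with the control lentivirus. Lentiviral and siRNA libraries lay apart on the leading principal component, which carried 58.4% of the variance. In each group 1 library lay between the other two for more genes than the 33.3% expected without preference. The share was 52.3% for siRNA-1 library 2, 40.4% for siRNA-2 library 2, 74.4% for scramble library 3, 51.6% for ATRNL1 lentivirus library 3 and 57.4% for control lentivirus library 2. In 4 groups the titles hold 1 number that runs the other two together, whose meaning is not given, so calls of the 7 genes that end without these libraries are named below, and those of list genes are given with the effects of processing.

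The cells carried the heart muscle gene TNNT2 at 3240 ± 209 CPM in siRNA-1 cells, 3010 ± 120 CPM in siRNA-2 cells, 3000 ± 471 CPM with scramble, 3790 ± 126 CPM with the ATRNL1 lentivirus and 3790 ± 127 CPM with the control lentivirus. Of 13 markers of neurons and glia, TH, the catecholamine synthesis enzyme of autonomic neurons, had reads in 1 library only. The summed level of the 13 was 39.5 to 45.8 CPM in siRNA-1 cells and 42.3 to 43.8 CPM in siRNA-2 cells, against 30.2 to 43.4 CPM with scramble. It was 48.8 to 54.4 CPM with the ATRNL1 lentivirus, against 49.9 to 51.7 CPM with the control lentivirus, so both pairs of ranges overlapped. Most of that sum came from SNAP25, a vesicle fusion protein, and CHRNA3, a nicotinic receptor subunit. SNAP25 itself rose with both siRNAs, to 21.9 ± 1.09 CPM in siRNA-1 cells and 21.8 ± 0.435 CPM in siRNA-2 cells, against 15.1 ± 4.21 CPM with scramble (SD, n = 3 each). Its log2 fold changes were 0.55 (SE 0.12, adjusted p = 0.00245 in edgeR's test) and 0.54 (SE 0.11, adjusted p = 0.00116), and both were 0.18 without a call against scramble library 1 alone. Its part in the results below was not tested. The neuronal RNA-binding protein ELAVL3 was present at 3.68 ± 1.34 CPM in siRNA-1 cells and 4.21 ± 1.04 CPM in siRNA-2 cells, against 2.6 ± 1.41 CPM with scramble. In bulk samples fewer cells of a type and less RNA per cell cannot be told apart.

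Promoter windows are shown for OPCML, GAP43 and LSAMP, whose levels set the siRNA groups apart, and for CNTN3, which was higher with every perturbation of ATRNL1. NEGR1 was also higher with every perturbation, but it had no RefSeq entry and is not shown. Each window runs from 250 bases before to 50 bases after a transcription start of RefSeq, on build GRCh38.p14, and is written 5′ to 3′ on the gene's own strand. Capitals mark matches, on either strand, to the GC box GGGCGG, the E-box form CAGCTG, the TATA box TATAAA, the AP-1 site TGANTCA or the purine repeat AGAGAGAG. The last motif was added after the GAP43 sequence had been read.
GAP43, chr3:115623260-115623559, plus strand: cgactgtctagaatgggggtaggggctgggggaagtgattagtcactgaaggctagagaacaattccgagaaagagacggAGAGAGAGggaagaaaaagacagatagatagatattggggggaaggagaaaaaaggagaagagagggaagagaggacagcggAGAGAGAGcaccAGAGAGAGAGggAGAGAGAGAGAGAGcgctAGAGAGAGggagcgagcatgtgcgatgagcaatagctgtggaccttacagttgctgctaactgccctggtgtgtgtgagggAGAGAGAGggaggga
OPCML, upstream start, chr11:133532452-133532751, minus strand: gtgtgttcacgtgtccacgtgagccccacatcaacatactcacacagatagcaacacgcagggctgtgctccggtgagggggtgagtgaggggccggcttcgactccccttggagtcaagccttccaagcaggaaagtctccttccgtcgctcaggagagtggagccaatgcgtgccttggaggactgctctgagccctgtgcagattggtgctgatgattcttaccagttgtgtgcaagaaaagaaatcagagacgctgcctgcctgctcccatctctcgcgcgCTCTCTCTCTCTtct
OPCML, downstream start, chr11:132943787-132944086, minus strand: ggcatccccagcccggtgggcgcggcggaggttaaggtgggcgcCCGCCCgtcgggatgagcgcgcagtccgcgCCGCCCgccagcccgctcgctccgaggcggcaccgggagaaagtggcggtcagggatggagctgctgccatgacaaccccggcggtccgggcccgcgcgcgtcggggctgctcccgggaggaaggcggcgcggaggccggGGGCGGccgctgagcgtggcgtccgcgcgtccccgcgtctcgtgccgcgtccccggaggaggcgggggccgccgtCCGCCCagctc
LSAMP, chr3:116445438-116445737, minus strand: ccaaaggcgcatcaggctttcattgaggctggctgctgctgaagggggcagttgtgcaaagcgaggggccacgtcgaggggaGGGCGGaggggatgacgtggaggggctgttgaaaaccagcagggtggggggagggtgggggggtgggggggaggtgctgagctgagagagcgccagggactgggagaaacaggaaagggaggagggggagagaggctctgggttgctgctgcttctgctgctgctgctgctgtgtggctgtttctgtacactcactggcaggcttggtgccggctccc
CNTN3, chr3:74614610-74614909, minus strand: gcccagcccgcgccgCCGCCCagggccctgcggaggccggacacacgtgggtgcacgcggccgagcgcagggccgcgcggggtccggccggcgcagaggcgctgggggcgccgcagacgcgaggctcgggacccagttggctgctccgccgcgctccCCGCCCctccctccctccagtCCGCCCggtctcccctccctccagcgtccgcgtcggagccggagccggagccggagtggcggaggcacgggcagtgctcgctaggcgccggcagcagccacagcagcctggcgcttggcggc

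The GAP43 window held 10 matches to the purine repeat, some of them overlapping, and the window at the upstream OPCML start held 3, all just after the start. That repeat was found in 3.36% of 35114 RefSeq promoter windows. A MAP2 window, not shown here, also held 1 match to it. The downstream OPCML start differed, with 4 GC boxes, 80.0% G+C and 50 CpG dinucleotides, against 57.0% G+C and 13 CpG at the upstream start. CNTN3 resembled it, with 3 GC boxes, 80.3% G+C and 43 CpG, and LSAMP had 1 GC box, 64.7% G+C and 8 CpG. GC boxes were found in 45.0% of all windows, whose median was 58.7% G+C and 14 CpG. No match to the E-box form CAGCTG, the TATA box or the AP-1 site was found in the 5 windows shown. These motifs were held by 17.9%, 11.5% and 7.71% of all windows. Other forms of the E-box were not searched for. The deposited counts are per gene, so they do not tell which start was used. The CNTN3 start of RefSeq lies outside the gene's span in GENCODE 29. The LSAMP start of RefSeq lies inside its gene's span, away from the 5′ end at 117139389.

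**Figure D1:**
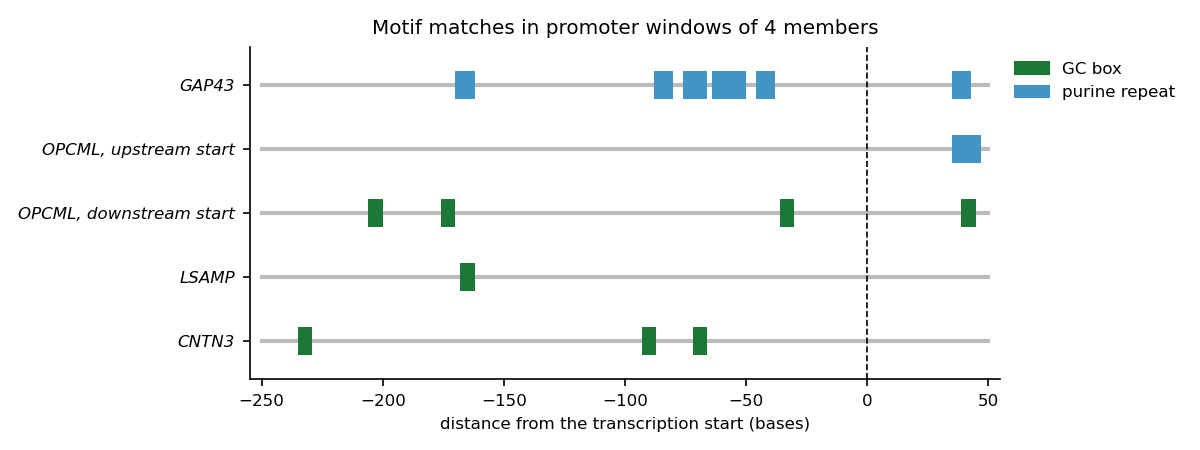
Motif matches in 5 promoter windows of GAP43, OPCML, LSAMP and CNTN3. The horizontal axis is the distance from the transcription start in bases and boxes are matches, in green for the GC box and in blue for the purine repeat. The 10 GAP43 matches lie on both sides of the start.

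Some members are neighbours in the genome (GENCODE 29, GRCh38). GAP43 (chromosome 3, 115623324 to 115721490, plus strand) and LSAMP (chromosome 3, 115802363 to 117139389, minus strand) are adjacent coding genes that point at each other across 80872 bases. NTM (chromosome 11, 131370478 to 132336822, plus strand) and OPCML (chromosome 11, 132414977 to 133532519, minus strand) do the same across 78154 bases. CNTN3 lies on chromosome 3 from 74262568 to 74521140 (minus strand), NEGR1 on chromosome 1 from 71395940 to 72282734 (minus strand) and MAP2 on chromosome 2 from 209424058 to 209734118 (plus strand). Whether strand was used in counting is not given, and genes inside these spans may share reads with them. Inside LSAMP, the pseudogene BZW1P2 had 1526 counts over all libraries, against 4692 for LSAMP. Inside NEGR1, the opposite-strand ZRANB2-AS2 had 1719 counts, against 3858 for NEGR1, and inside OPCML the opposite-strand AP004782.1 had 739, against 3553 for OPCML.

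Per length, the members fell into tiers. In scramble cells GAP43 had 1.34 ± 0.236 and MAP2 1.3 ± 0.00841 CPM per kilobase of merged exons (SD, n = 3 each). LSAMP followed at 0.421 ± 0.0372, OPCML at 0.313 ± 0.0221 and NEGR1 at 0.198 ± 0.00934 CPM per kilobase. CNTN3 had 0.117 ± 0.0267 and NTM 0.0253 ± 0.00922 CPM per kilobase. With siRNA-1, GAP43 stood at 4.16 ± 0.284 and MAP2 at 2.3 ± 0.36 CPM per kilobase, while with the control lentivirus GAP43 stood at 1.79 ± 0.229 and MAP2 at 3.14 ± 0.152. Which of these 2 genes was more abundant thus differed between groups.

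**Figure D2:**
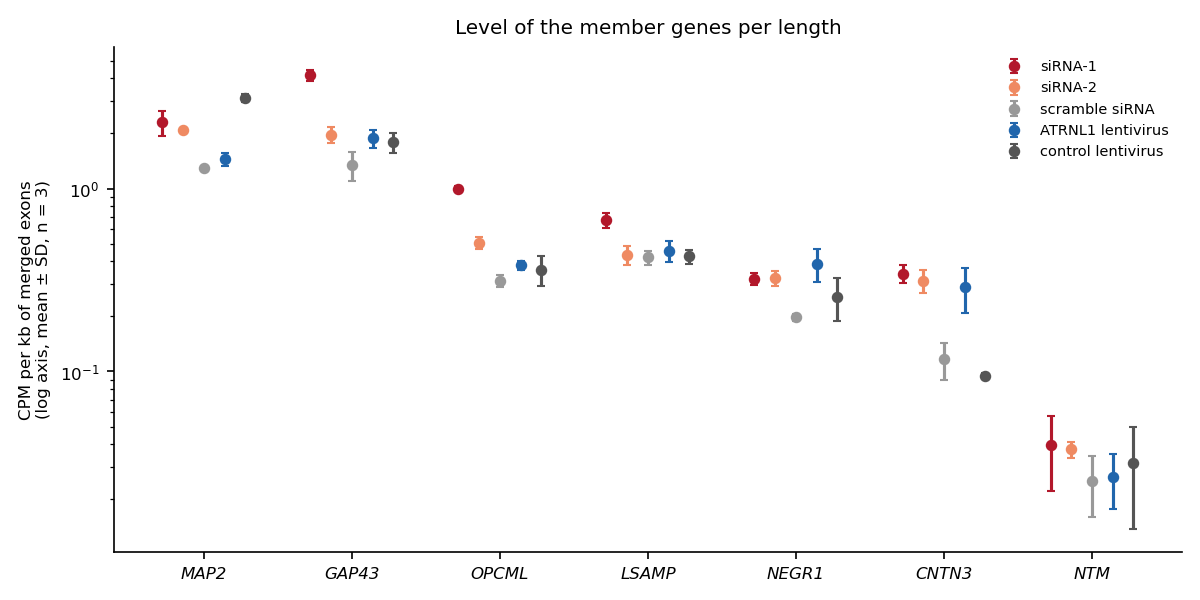
Level of the 7 genes in CPM per kilobase of merged exons, on a log axis, by group. Points are means of 3 libraries and bars are SDs. GAP43 and MAP2 lie highest in each group and NTM lies lowest.

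The knockdown comparison asked which of these genes changed when ATRNL1 was lowered. Of the 3 relatives, LSAMP and NEGR1 rose with siRNA-1, and NEGR1 rose with siRNA-2. NTM passed no test. Over all genes tested 5.85% rose and 3.76% fell with siRNA-1 (9.61% in either direction), and 9.64% rose and 8.48% fell with siRNA-2 (18.1% in either direction). All siRNA-1 libraries lay above all scramble libraries in 14.7% of genes and below them in 14.1%, and all siRNA-2 libraries lay above in 18.7% and below in 18%. Adjusted p-values below are Benjamini-Hochberg values over all genes tested, from the quasi-likelihood test of edgeR.

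LSAMP, the limbic system-associated IgLON, had 7.65, 6.46 and 6.68 CPM in siRNA-1 cells and 5.07, 4.3 and 4.08 CPM in siRNA-2 cells, against 4.78, 4.03 and 4.24 CPM with scramble. All siRNA-1 libraries lay above all scramble libraries, whereas siRNA-2 and scramble overlapped. The siRNA-1 difference was 1.6-fold (log2 fold change 0.68, SE 0.12, adjusted p = 0.000447). Against scramble library 1 alone that call was lost, at 0.54 (adjusted p = 0.131). The siRNA-2 difference was 0.05 on the log2 scale (SE 0.12, adjusted p = 0.832). Between the siRNAs 4.53% of all genes were higher and 5.6% lower with siRNA-2 (10.1% in either direction), and the libraries lay wholly above in 17% and wholly below in 16.9%. LSAMP was lower with siRNA-2 than with siRNA-1 by test of that difference (log2 fold change -0.63, SE 0.12, adjusted p = 0.00103), a call that ended without the in-between library of each group (-0.64, adjusted p = 0.0665).

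NEGR1, the neuronal growth regulator of the family, had 4.36, 3.96 and 4.59 CPM in siRNA-1 cells and 4.63, 4.51 and 3.9 CPM in siRNA-2 cells, against 2.78, 2.53 and 2.65 CPM with scramble. Every library of both siRNAs lay above every scramble library. The log2 fold change was 0.70 with siRNA-1 (SE 0.16, adjusted p = 0.0044) and 0.72 with siRNA-2 (SE 0.16, adjusted p = 0.00152). siRNA-2 and siRNA-1 differed by 0.01 (SE 0.15, adjusted p = 0.974). Both calls were lost against scramble library 1 alone (0.63, adjusted p = 0.216, and 0.65, adjusted p = 0.102) and without the in-between libraries (0.76, adjusted p = 0.106, and 0.69, adjusted p = 0.083). The siRNA-1 call was also lost against scramble library 3 alone (0.72, adjusted p = 0.0547).

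NTM, or neurotrimin, stayed near the limit of what these libraries can measure, at 0.411, 0.233 and 0.181 CPM in siRNA-1 cells and 0.231, 0.271 and 0.281 CPM in siRNA-2 cells, against 0.13, 0.149 and 0.249 CPM with scramble. The ranges of siRNA-1 and scramble overlapped, as did those of siRNA-2 and scramble. Log2 fold changes were 0.56 (SE 0.46, adjusted p = 0.552) with siRNA-1 and 0.48 (SE 0.45, adjusted p = 0.542) with siRNA-2, so a difference was not detectable at this depth.

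OPCML, an IgLON also called opioid-binding cell adhesion molecule, had 7.43, 7.42 and 7.89 CPM in siRNA-1 cells and 4.15, 3.67 and 3.63 CPM in siRNA-2 cells, against 2.48, 2.18 and 2.47 CPM with scramble. The 3 groups did not overlap, and siRNA-1 lay highest. The log2 fold change was 1.67 (SE 0.13) with siRNA-1 and 0.68 (SE 0.13) with siRNA-2, and siRNA-2 against siRNA-1 stood at -0.99 (SE 0.12). These values are among those that led to its choice.

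GAP43 showed the same order, with 9.29, 8.66 and 8.11 CPM in siRNA-1 cells and 4.05, 3.73 and 4.55 CPM in siRNA-2 cells, against 3.32, 2.35 and 2.72 CPM with scramble. Its log2 fold changes were 1.65 (SE 0.13) with siRNA-1 and 0.56 (SE 0.13) with siRNA-2, and siRNA-2 against siRNA-1 stood at -1.08 (SE 0.13). ATRNL1 had the other order, being lower with siRNA-2 than with siRNA-1 (log2 fold change -0.87, adjusted p = 2.61e-05). The siRNA with the lower ATRNL1 level was therefore not the one with the higher OPCML, GAP43 and LSAMP levels.

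CNTN3, a contactin also known as BIG-1, had 1.53, 1.81 and 1.91 CPM in siRNA-1 cells and 1.86, 1.48 and 1.46 CPM in siRNA-2 cells, against 0.63, 0.446 and 0.713 CPM with scramble. Both siRNAs lay above scramble and overlapped each other. Log2 fold changes were 1.52 (SE 0.23) with siRNA-1 and 1.40 (SE 0.23) with siRNA-2, and siRNA-2 against siRNA-1 was -0.12 (SE 0.21).

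MAP2 had 31.1, 25.7 and 22.9 CPM in siRNA-1 cells and 24.4, 24.3 and 24.1 CPM in siRNA-2 cells, against 14.9, 15 and 15.1 CPM with scramble. The siRNA-1 libraries spread over a range that held all siRNA-2 libraries. Its log2 fold changes were 0.83 (SE 0.09) with siRNA-1 and 0.69 (SE 0.09) with siRNA-2, with -0.13 (SE 0.09) between siRNA-2 and siRNA-1. Across the knockdowns the 7 genes thus fell into those higher with siRNA-1 than with siRNA-2 (OPCML, GAP43 and LSAMP) and those whose siRNA-2 and siRNA-1 libraries overlapped (NEGR1, CNTN3, MAP2 and NTM).

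**Figure D3:**
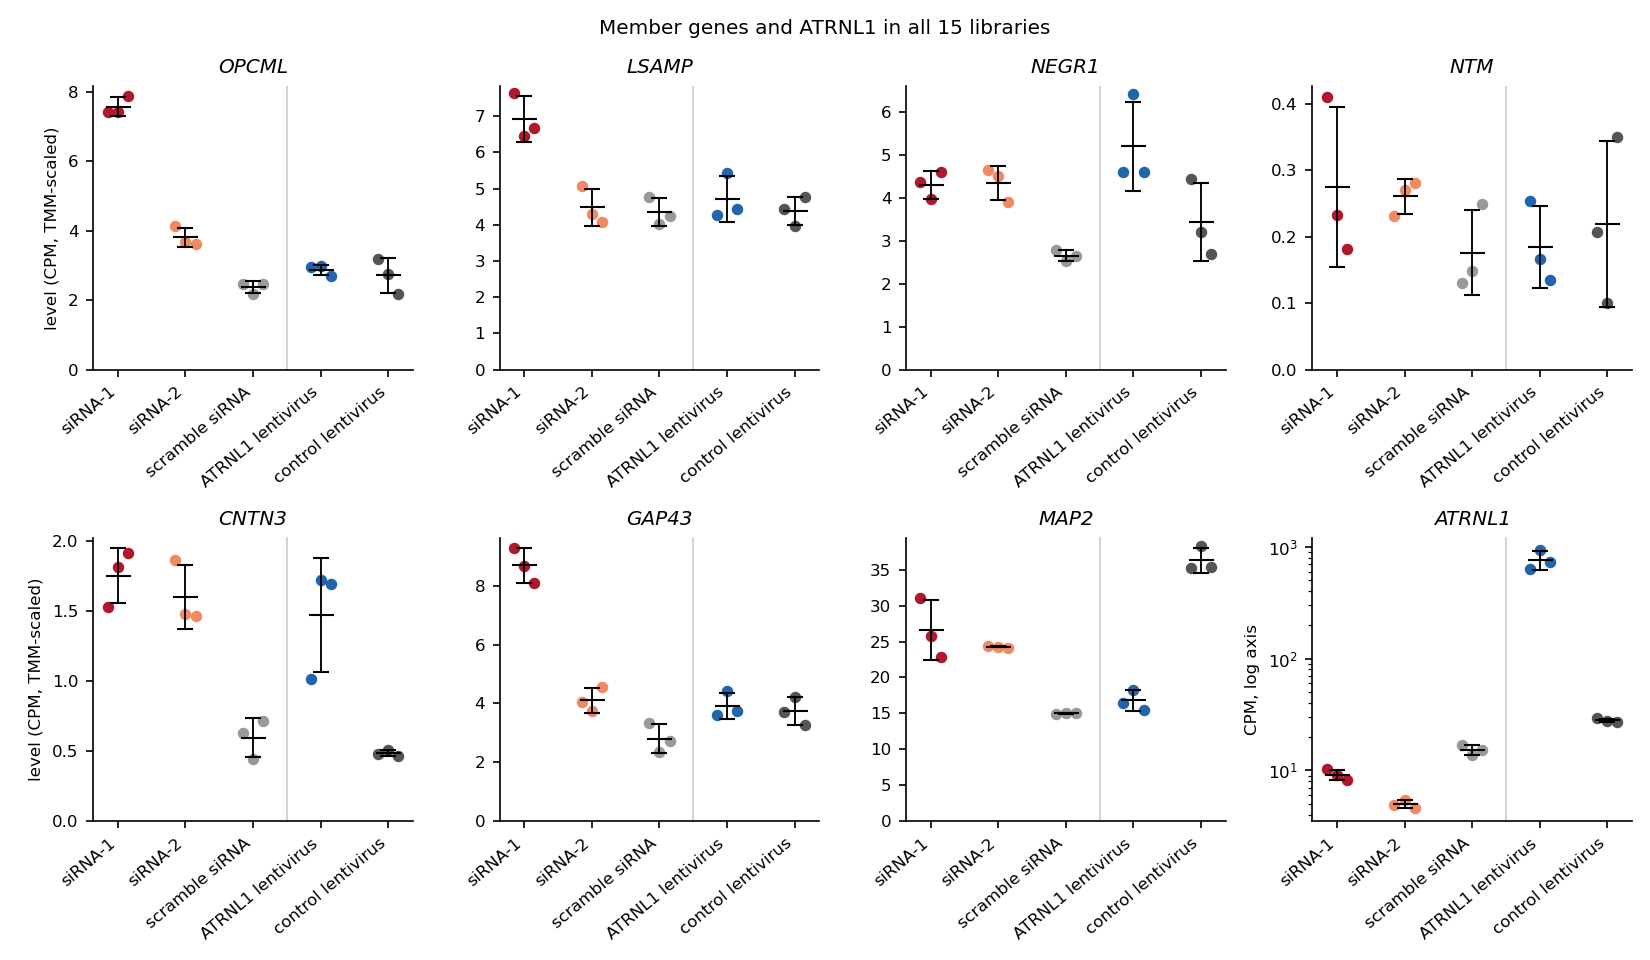
Level of the 7 genes and of ATRNL1 in each library, in CPM (for ATRNL1 on a log axis). Points are libraries, bars are the mean ± SD of 3 libraries, and the grey line parts siRNA from lentiviral groups. OPCML, GAP43 and LSAMP are highest with siRNA-1, CNTN3 is higher in all 3 groups with altered ATRNL1, and MAP2 is highest with the control lentivirus.

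The overexpression comparison set the ATRNL1 lentivirus against the control lentivirus, libraries that played no part in choosing the members. CNTN3 and NEGR1 rose, MAP2 fell, and OPCML, GAP43, LSAMP and NTM did not pass the test. In this comparison 19.1% of all genes tested rose and 18% fell, or 37.1% in either direction. The 3 overexpression libraries lay above the 3 controls in 21.4% of genes and below them in 21.5%.

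CNTN3 had 1.01, 1.72 and 1.69 CPM with the ATRNL1 lentivirus, against 0.478, 0.506 and 0.467 CPM with the control lentivirus. All 3 overexpression libraries lay above all 3 controls. The difference was 2.97-fold (log2 fold change 1.57, SE 0.24, adjusted p = 6.74e-06), and its log2 fold change ran from 1.42 to 1.81 over 12 alternatives. CNTN3 therefore stood higher than its control both where ATRNL1 was lowered and where it was raised, although its knockdown values led to its choice. The relative NEGR1 also rose in all 3 comparisons (log2 fold changes 0.70, 0.72 and 0.59), with calls that ended without the in-between libraries.

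MAP2 had 16.5, 18.3 and 15.5 CPM with the ATRNL1 lentivirus, against 35.2, 38.3 and 35.4 CPM with the control lentivirus. Each ATRNL1 lentivirus library lay far below each control library. The fall in log2 terms was -1.11 (SE 0.09, adjusted p = 1.63e-10), with a range of -1.18 to -1.02 over 12 alternatives. Its level with the ATRNL1 lentivirus lay next above that of scramble cells, and the control lentivirus, at 36.3 ± 1.75 CPM (SD, n = 3 each), had the highest level of all groups.

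NEGR1 had 4.59, 6.4 and 4.6 CPM with the ATRNL1 lentivirus, against 4.43, 3.19 and 2.68 CPM with the control lentivirus. The groups did not overlap, but the lowest overexpression library and the highest control library were close. The rise in log2 terms was 0.59 (SE 0.15, adjusted p = 0.00307). Without the in-between libraries the call ended at 0.60 (adjusted p = 0.0532).

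OPCML had 2.95, 2.98 and 2.71 CPM with the ATRNL1 lentivirus, against 3.2, 2.77 and 2.19 CPM with the control lentivirus (log2 fold change 0.07, SE 0.13, adjusted p = 0.713). GAP43 had 3.6, 4.42 and 3.75 CPM with the ATRNL1 lentivirus, against 3.72, 4.22 and 3.27 CPM with the control lentivirus (0.05, SE 0.13, adjusted p = 0.791). LSAMP had 4.26, 5.43 and 4.45 CPM with the ATRNL1 lentivirus, against 4.43, 3.98 and 4.76 CPM with the control lentivirus (0.11, SE 0.12, adjusted p = 0.527). In these 3 genes the groups overlapped, and the differences were smaller than their standard errors. NTM had 0.254, 0.166 and 0.135 CPM with the ATRNL1 lentivirus, against 0.207, 0.101 and 0.35 CPM with the control lentivirus (-0.07, SE 0.47, adjusted p = 0.926).

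**Figure D4:**
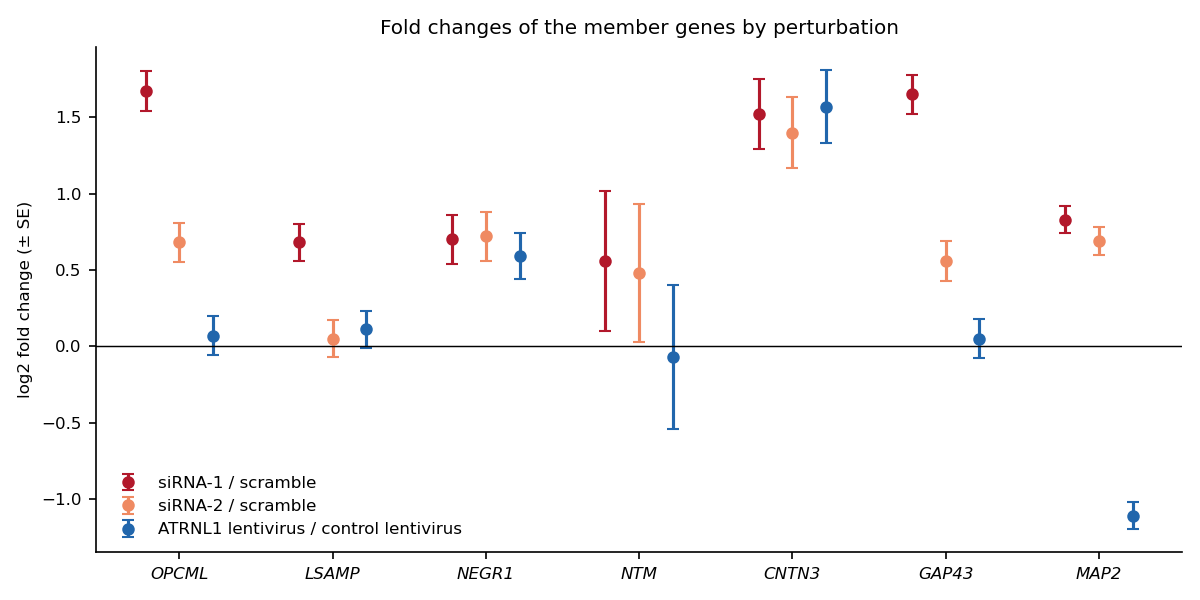
Log2 fold changes of the 7 genes for siRNA-1 and siRNA-2 against scramble and for the ATRNL1 lentivirus against the control lentivirus, with SEs as bars. CNTN3 lies between 1.40 and 1.57 in all 3 comparisons, whereas MAP2 is above 0 with both siRNAs and at -1.11 with the ATRNL1 lentivirus. Knockdown values of OPCML, CNTN3, GAP43 and MAP2 are descriptive, since they led to the choice of these genes.

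The controls themselves differed for some members. Control lentivirus and scramble cells differ in delivery and selection, and possibly in other handling, which cannot be told apart. Of all genes tested 30.3% were higher and 33.2% lower with the control lentivirus than with scramble, 63.6% in all. Its libraries lay wholly above those of scramble in 32.9% of genes and wholly below in 35.6%. MAP2 stood at 1.28 on this log2 scale (SE 0.09), and GAP43 at 0.45 (SE 0.14). OPCML stood at 0.21 (SE 0.13) and CNTN3 at -0.32 (SE 0.26). NEGR1 was higher by 0.38 (SE 0.16, adjusted p = 0.037), although the groups overlapped and the call ended when only these groups were fitted (0.38, adjusted p = 0.0737). LSAMP, at 0.01 (SE 0.12, adjusted p = 0.956), and NTM, at 0.11 (SE 0.47, adjusted p = 0.853), did not pass the test.

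The order of levels over all 5 groups was described by the ranges of neighbouring groups. It crosses siRNA and lentiviral groups, and shares over all genes were not computed for every such pair. Between the controls alone, control lentivirus libraries lay wholly above scramble in 32.9% of genes and wholly below in 35.6%. The siRNA levels of OPCML, CNTN3, GAP43 and MAP2 are also those that led to their choice. For OPCML, siRNA-1 lay above siRNA-2 and siRNA-2 above the ATRNL1 lentivirus with no overlap, and the ATRNL1 lentivirus, control lentivirus and scramble overlapped as neighbours. For GAP43 and LSAMP siRNA-1 stood alone and every later neighbour overlapped. For CNTN3, siRNA-1, siRNA-2 and the ATRNL1 lentivirus formed an upper set apart from scramble and the control lentivirus. For MAP2 the order was control lentivirus, siRNA-1, siRNA-2, ATRNL1 lentivirus and scramble, in which only the neighbours siRNA-1 and siRNA-2 overlapped. For NEGR1 and NTM each group overlapped the next.

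By likeness of pattern, measured as Pearson's r of log2 CPM over the 15 libraries among genes of at least 1 CPM, OPCML was closest to CLSTN2 (r = 0.96), a calsyntenin of the synapse, then to GAP43 (0.944) and WDR1 (0.889). GAP43 was closest to the histone gene HIST2H2BE (0.951), OPCML (0.944) and CLSTN2 (0.91). LSAMP was closest to HIST2H2BE (0.901), GAP43 (0.867) and OPCML (0.838). OPCML and GAP43 thus stand in each other's lists, and both stand in that of LSAMP. OPCML and GAP43 were both picked for a rise with knockdown in libraries that are among these 15, which favours their likeness. The 15 points hold 5 groups, so r mostly describes group means. CNTN3 was closest to GSE1 (0.96), STUM (0.954) and SLC41A1 (0.942). MAP2 was closest to NDRG3 (0.933), ZSWIM7 (0.923) and BEX1 (0.922). NEGR1 was closest to NRBF2 (0.889), HS3ST3A1 (0.881) and TMEM200C (0.878), and the sparse NTM to AC138035.1 (0.793), TOE1 (0.779) and MASP2 (0.712).

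The wider families were described by the number of genes called, leaving out the 4 picked genes, with no test of a list as a whole. The shares over all genes tested, to be read beside each count, were 5.85% that rose and 3.76% that fell with siRNA-1, 9.64% and 8.48% with siRNA-2, and 19.1% and 18% with overexpression. In the IgLON family 3 of 4 genes rose with siRNA-1 and 2 of 4 with siRNA-2, with median log2 fold changes of 0.69 and 0.60, against -0.01 and 0 over all genes tested. Besides LSAMP and NEGR1 this counts IGLON5, the fifth member, which was singled out after its values were seen. IGLON5 averaged 0.825 ± 0.0258 CPM in siRNA-1 cells and 0.985 ± 0.137 CPM in siRNA-2 cells, against 0.357 ± 0.103 CPM with scramble (SD, n = 3 each). Its log2 fold changes were 1.28 (SE 0.26, adjusted p = 0.00196) and 1.53 (SE 0.25, adjusted p = 8.69e-05). It also rose with overexpression, to 0.701 ± 0.061 CPM with the ATRNL1 lentivirus, against 0.43 ± 0.0604 CPM with the control lentivirus (0.71, SE 0.25, adjusted p = 0.0289). With NEGR1, it made 2 of 4 IgLONs other than OPCML that rose there.

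Among contactins other than CNTN3, 2 of 4 rose with siRNA-1, 3 of 4 with siRNA-2 and 1 of 4 with overexpression, a share near the 19.1% of all genes, and none of the 4 fell. CNTN1, a contactin of axons and myelinated nerve, averaged 13.9 ± 1.15 CPM in siRNA-1 cells and 24.8 ± 0.799 CPM in siRNA-2 cells, against 10.7 ± 1.85 CPM with scramble (SD, n = 3 each). Its log2 fold change was 0.39 with siRNA-1 (SE 0.12, adjusted p = 0.0359), and 1.22 with siRNA-2 (SE 0.12, adjusted p = 3.78e-08). That weaker call was lost under 8 of 15 alternatives, among them without siRNA-1 library 1 (0.32) or scramble library 2 (0.27). It rose with overexpression too, to 57.9 ± 5.25 CPM with the ATRNL1 lentivirus, against 27.1 ± 5.12 CPM with the control lentivirus (1.10, SE 0.11, adjusted p = 1.13e-08). CNTN5 rose by 0.84 with siRNA-1 (SE 0.12, adjusted p = 4.78e-05), to 39 ± 2.27 CPM, against 21.9 ± 6.48 CPM with scramble. CNTN4 rose by 1.08 with siRNA-2 (SE 0.16, adjusted p = 2.69e-05), to 2.81 ± 0.213 CPM, against 1.36 ± 0.325 CPM with scramble, a call lost at 0.69 against scramble library 1 alone. CNTN6 was below the filter on low counts.

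Of 10 contactin partners tested, 3 rose and 1 fell with siRNA-1, 2 rose and 1 fell with siRNA-2, and 4 rose and 2 fell with overexpression. CNTNAP1, which binds CNTN1 beside the node of Ranvier, went the other way to the contactins in knockdown. It averaged 20.7 ± 1.18 CPM in siRNA-1 cells and 24.5 ± 0.369 CPM in siRNA-2 cells, against 30.1 ± 0.794 CPM with scramble (SD, n = 3 each). It fell by 0.54 with siRNA-1 (SE 0.10, adjusted p = 0.000549) and by 0.30 (SE 0.10, adjusted p = 0.0322) with siRNA-2, a call lost under 10 of 15 alternatives. With overexpression CNTNAP1 rose by 0.63 (SE 0.10, adjusted p = 2.35e-05). Its relative CNTNAP2, too low for the naming rule, rose with both siRNAs. It averaged 1.25 ± 0.28 CPM in siRNA-1 cells and 1.43 ± 0.202 CPM in siRNA-2 cells, against 0.515 ± 0.126 CPM with scramble. The log2 fold changes of CNTNAP2 were 1.29 (SE 0.24, adjusted p = 0.000575) and 1.49 (SE 0.23, adjusted p = 3.09e-05). CNTNAP3 was called with neither siRNA. NFASC, the node protein neurofascin, rose by 0.46 (adjusted p = 0.0295) with siRNA-1 and by 0.63 (adjusted p = 0.00113) with siRNA-2, but against scramble library 1 alone it stood at 0.15 and 0.32 without a call. TNC, the matrix protein tenascin C, rose by 1.02 with overexpression (SE 0.19, adjusted p = 9.5e-05), and NRCAM fell by 0.49 (SE 0.15, adjusted p = 0.0132), a call that ended without library 1 or 3 of the ATRNL1 lentivirus (-0.41 and -0.40) or library 3 of the control lentivirus (-0.41).

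Growth cone proteins other than GAP43 rose in 6 of 14 genes with siRNA-1 and in 8 of 14 with siRNA-2, while 1 and 0 fell. Their medians were 0.31 and 0.35. MARCKSL1, a membrane-bound actin regulator, rose by 0.55 with siRNA-1 (SE 0.08, adjusted p = 4.86e-05) and by 0.60 in siRNA-2 cells (SE 0.08, adjusted p = 5.58e-06). CRMP1, a collapsin response mediator, rose by 0.79 with siRNA-2 (SE 0.10, adjusted p = 3.04e-06), and RTN4, the neurite growth inhibitor Nogo, fell by 0.30 with siRNA-1 (SE 0.07, adjusted p = 0.00834), a call lost without siRNA-1 library 1 (-0.28). With overexpression 4 of the 14 rose and 3 fell, beside 19.1% and 18% of all genes. NRN1, or neuritin, had 2.42 ± 0.428 CPM with the ATRNL1 lentivirus, against 0.281 ± 0.0859 CPM with the control lentivirus (3.01, SE 0.25, adjusted p = 4.68e-10). In scramble cells NRN1 stood at 0.866 ± 0.086 CPM, above the control lentivirus level. STMN1, a protein that takes microtubules apart, had 462 ± 44.2 CPM with the ATRNL1 lentivirus, against 816 ± 47.5 CPM with the control lentivirus (SD, n = 3 each), and fell by 0.82 (SE 0.09, adjusted p = 2.47e-08).

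Around MAP2, 3 of 12 other genes of the neuronal cytoskeleton rose and 0 fell with each siRNA. INA, the filament protein internexin, rose by 0.74 with siRNA-1 (SE 0.13, adjusted p = 0.000445) and by 0.85 in siRNA-2 cells (SE 0.13, adjusted p = 2.83e-05). TUBB2A, a beta tubulin, rose by 0.66 (adjusted p = 0.000531) with siRNA-1 and by 0.71 (adjusted p = 8.44e-05) with siRNA-2. Without the in-between libraries INA (0.63) and TUBB2A (0.65) were not called with siRNA-1. With overexpression 8 of 12 rose and 2 fell, beside 19.1% and 18% of all genes. The neurofilament gene NEFM had 18.5 ± 5 CPM with the ATRNL1 lentivirus, against 1.68 ± 0.152 CPM with the control lentivirus (SD, n = 3 each; log2 fold change 3.44, SE 0.15, adjusted p = 3.92e-15). NEFL rose by 1.89 (SE 0.10, adjusted p = 4.46e-13) and MAPT, the axonal counterpart of MAP2 known as tau, by 2.05 (SE 0.13, adjusted p = 2.5e-12). MAP2 itself fell there, as did MAP1B by 0.38 (SE 0.08, adjusted p = 0.000194) and MAP1A by 0.30 (SE 0.08, adjusted p = 0.00257). MAPT stood at 10.8 ± 1.39 CPM with the ATRNL1 lentivirus and 2.54 ± 0.465 CPM with the control lentivirus, beside 13 ± 2.07 CPM in scramble cells. NEFM stood at 10.1 ± 0.269 CPM in scramble cells, so its control lentivirus level was also below that of scramble.

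**Figure D5:**
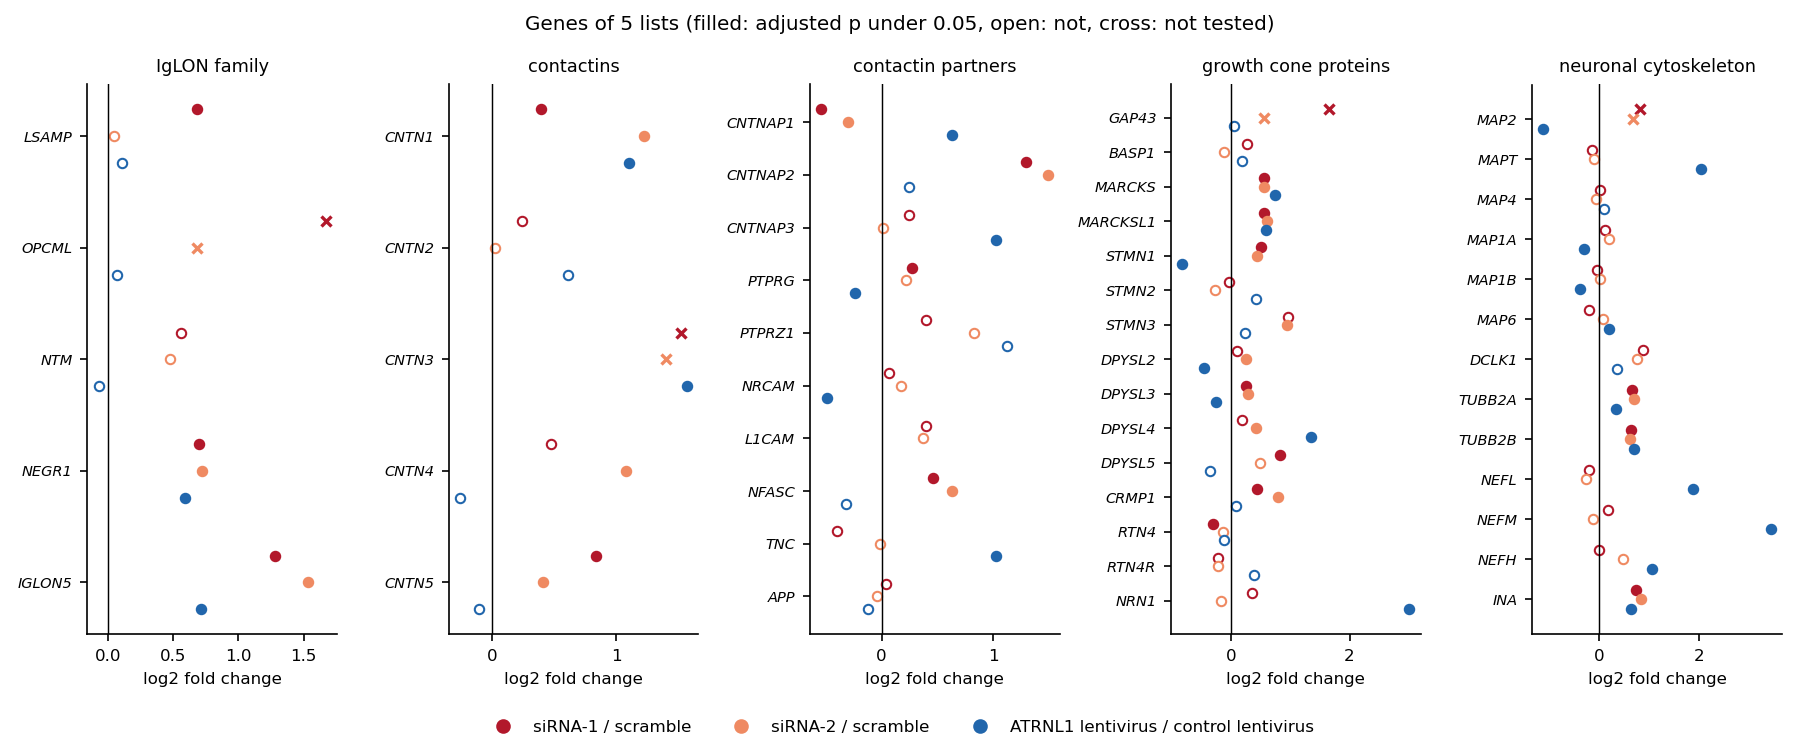
Log2 fold changes of the tested genes of 5 lists for siRNA-1 and siRNA-2 against scramble and for the ATRNL1 lentivirus against the control lentivirus. Filled points passed an adjusted p of 0.05, open points did not, and crosses mark picked genes without a test. L1CAM has no overexpression point because the control lentivirus libraries had no reads of it. Of the IgLONs other than OPCML, 3 rose with siRNA-1, and among contactins CNTN1 rose in all 3 comparisons.

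Other neural adhesion genes and guidance genes were counted in the same way. Of 16 adhesion genes 5 rose and 0 fell with siRNA-1, 3 rose and 2 fell with siRNA-2, and 3 rose and 5 fell with overexpression, beside 19.1% and 18% of all genes. Of 21 axon guidance genes 8 rose and 1 fell with siRNA-1, 6 rose and 1 fell with siRNA-2, and 6 rose and 8 fell with overexpression, beside the same shares. The netrin receptor UNC5D rose by 1.27 with siRNA-1 (SE 0.14, adjusted p = 9.77e-07) and by 0.89 in siRNA-2 cells (SE 0.14, adjusted p = 3.77e-05). NTN1, which encodes netrin 1, rose by 1.15 (SE 0.24, adjusted p = 0.00201) with siRNA-1, a call lost without the in-between libraries (0.91, adjusted p = 0.154) and against scramble library 1 alone (adjusted p = 0.122), and by 1.38 (SE 0.23, adjusted p = 8.97e-05) with siRNA-2.

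Marker sums of other cell types are given beside these counts, and their part in the results was not tested. Epicardial markers summed to 6.2 to 7.63 CPM in siRNA-1 cells and 5.74 to 6.28 CPM in siRNA-2 cells, against 3.82 to 5.45 CPM with scramble. They summed to 9.79 to 12.7 CPM with the ATRNL1 lentivirus, against 7.53 to 8.38 CPM with the control lentivirus. In that comparison WT1 of this list rose by 1.05 (SE 0.13, adjusted p = 7.09e-07). ALDH1A2, also of this list, fell by 0.92 (SE 0.16, adjusted p = 5.57e-05). Endothelial markers summed to 61.7 to 64.9 CPM in siRNA-1 cells and 58.9 to 68 CPM in siRNA-2 cells, against 37.2 to 66.5 CPM with scramble. They summed to 50.1 to 52.5 CPM with the ATRNL1 lentivirus, against 61.6 to 72.2 CPM with the control lentivirus. Only 2 of these 5 markers were tested. Nearly all of the sum was KDR in siRNA-1 cells (62.8 ± 1.73 CPM) and in scramble cells (51.5 ± 14.7 CPM). KDR, an endothelial growth factor receptor of that list, fell by 0.38 with the ATRNL1 lentivirus (SE 0.12, adjusted p = 0.0133), a call lost without control lentivirus library 3 (-0.32). Fibroblast markers summed to 177 to 200 CPM in siRNA-1 cells and 179 to 188 CPM in siRNA-2 cells, against 137 to 189 CPM with scramble. Of 6 genes tested in that list, 3 rose with siRNA-1 and 2 with siRNA-2, beside 5.85% and 9.64% of all genes, and 0 fell. POSTN rose by 0.97 with siRNA-1 (adjusted p = 3.88e-05) and by 0.64 with siRNA-2 (adjusted p = 0.00142). PDGFRA rose by 0.45 (adjusted p = 0.00932) and by 0.56 (adjusted p = 0.00055). COL3A1 stood lower with siRNA-1 without a call (-0.25, adjusted p = 0.0807), at 69.5 ± 4.85 CPM, against 82.5 ± 10.8 CPM with scramble. Against scramble library 1 alone PDGFRA stood at 0.16 and 0.27 and POSTN with siRNA-2 at 0.34, all 3 without a call. The fibroblast sum was 112 to 143 CPM with the ATRNL1 lentivirus, against 108 to 110 CPM with the control lentivirus. Atrial cardiomyocyte markers summed to 15300 to 16500 CPM in siRNA-1 cells and 15700 to 17300 CPM in siRNA-2 cells, against 14100 to 20500 CPM with scramble, and to 13000 to 13800 CPM with the ATRNL1 lentivirus, against 15200 to 15400 CPM with the control lentivirus. NPPA, the atrial natriuretic peptide gene of that list, fell by 0.62 in siRNA-1 cells (SE 0.11, adjusted p = 0.000569) and by 0.60 in siRNA-2 cells (SE 0.11, adjusted p = 0.000383). Of the 11 atrial genes tested, only NPPA was called lower with either siRNA. Called higher were ACTN2 (0.29) and NR2F2 (0.29) for siRNA-1. For siRNA-2 they were KCNA5 (0.76), MYL4 (0.44) and ACTN2 (0.42). Over 15 alternatives the siRNA-1 calls were lost 7 times for ACTN2 and 8 for NR2F2. Those for siRNA-2 were lost 8 times for MYL4, 2 for KCNA5 and 1 for ACTN2. With overexpression 4 of the 11 atrial genes fell and 1 rose, beside 18% and 19.1% of all genes. The largest falls were MYH6 (-0.63), MYL4 (-0.40) and MYL7 (-0.36), and ACTN2 rose (0.32). The overexpression call of MYL4 was lost under 5 alternatives, and those of MYL7 and ACTN2 under 1 each.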

How the data were processed

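The deposited file holds raw counts of reads for each gene, unscaled by the authors. The submitters' processing notes name STAR 2.7.9a, DESeq2 1.30.1 and build GRCh 38 without their roles, and no source used here names the counting program or strand setting. Ribosomal RNA was depleted per the labels' protocols, whereas the molecule field names polyA RNA. Column names give each library's group, not its sample, so library numbers follow column order and pair nothing. The labels name no batch. The 649 rows without a gene identifier (at most 0.00437% of the counts in a library) were dropped.

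Genes were kept by filterByExpr by group (24659), scaled by TMM and fitted in edgeR 4.0.16 (R 4.3.3) as 5 group means over all 15 libraries, sharing 1 estimate of spread (biological coefficient of variation 8.24%). The threshold was a Benjamini-Hochberg adjusted p of 0.05. The standard error is the size of the log2 fold change divided by the square root of F. The fit was tested on simulated data. Levels in CPM are means ± SD over 3 libraries. Alternatives were DESeq2 1.42.0, RLE factors, library size only, no filter, only the groups compared, each library left out, single scramble controls and, chosen after seeing the data, no in-between libraries. The last were found over 7258 genes above 20 CPM.

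The members and the 13 gene lists were chosen with earlier results of these data known. Named from each list were, per comparison, up to 3 called genes per direction with the largest change and at least 1 CPM, and for each member the 3 genes with the highest correlation. Promoter sequences are from RefSeq, where 6 of the 7 members had an entry, and gene spans from GENCODE 29. Some genes of the lists are not reported here.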

Additional observations from a re-analysis of the deposited data

Results flagged for a closer look

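Some list genes that the naming rule picked for either siRNA or for overexpression also differed between siRNA-2 and siRNA-1. LSAMP and 14 others passed edgeR's quasi-likelihood test of that difference (Benjamini-Hochberg adjusted p under 0.05). In each of them the 3 siRNA-2 libraries lay wholly on one side of the 3 siRNA-1 libraries. Over all genes tested 10.1% were called in this comparison, and the libraries lay wholly above in 17% and wholly below in 16.9%. Genes named for an siRNA were chosen by their change in these same libraries, which favours such differences. The number called is therefore a description. LSAMP stood at 4.48 ± 0.518 CPM with siRNA-2, against 6.93 ± 0.632 CPM with siRNA-1 (log2 fold change -0.63).

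Contactins stood on both sides. CNTN1 stood at 24.8 ± 0.799 CPM with siRNA-2, against 13.9 ± 1.15 CPM with siRNA-1 (SD, n = 3 each; log2 fold change 0.83, adjusted p = 2.08e-05), and CNTN4 was also higher with siRNA-2 (0.61, adjusted p = 0.0156). CNTN5 was lower with siRNA-2, at 29 ± 1.6 CPM, against 39 ± 2.27 CPM with siRNA-1 (-0.43, adjusted p = 0.0224). The CNTN5 call was lost without siRNA-1 library 1 (-0.44) or 3 (-0.38), without siRNA-2 library 2 (-0.39) or 3 (-0.43) and with library size only (-0.36). The CNTN4 call was lost without siRNA-1 library 2 (0.49) or 3 (0.61) or siRNA-2 library 3 (0.56).

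Also lower with siRNA-2 than with siRNA-1 were the adhesion genes PCDH9 (-0.63), CDH2 (-0.56) and ALCAM (-0.49), the guidance receptors NRP1 (-0.42), ROBO2 (-0.38) and NRP2 (-0.36), and the fibroblast marker COL1A1 (-0.31). Higher with siRNA-2 were the synaptic adhesion gene NLGN3 (0.57), the atrial potassium channel gene KCNA5 (0.55), the plexin gene PLXNA1 (0.47) and the growth cone gene CRMP1 (0.36). Without the in-between libraries, LSAMP (-0.64), CNTN4, CNTN5, ALCAM, NLGN3, CRMP1, ROBO2, NRP1, NRP2, KCNA5 and COL1A1 lost their calls, with adjusted p of 0.0643 to 0.361 in edgeR's test, and CNTN1, PCDH9, CDH2 and PLXNA1 kept theirs.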

How the results depend on the processing

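The CNTN3 and MAP2 calls with overexpression held under all 12 alternatives run. Single scramble controls ended LSAMP with siRNA-1 at 0.54 (library 1), and NEGR1 at 0.63 (library 1) and 0.72 (library 3) with siRNA-1 and 0.65 (library 1) with siRNA-2. Against library 1 alone LSAMP turned to -0.09 with siRNA-2. Without the in-between libraries NEGR1 lost its calls at 0.76 with siRNA-1, 0.69 with siRNA-2 and 0.60 with overexpression, and LSAMP between the siRNAs at -0.64. Among the list genes, calls lost there included CNTN1 (0.41), NFASC (0.45), CNTNAP1 (-0.51), RTN4 (-0.31), INA (0.63), TUBB2A (0.65), SNAP25 (0.55), NTN1 (0.91) and PDGFRA (0.50) with siRNA-1, NFASC (0.62), CNTNAP1 (-0.31), SNAP25 (0.54) and POSTN (0.69) with siRNA-2, and NRCAM (-0.48), MAP1B (-0.37) and KDR (-0.37) with overexpression. For NEGR1 between the siRNAs the sign turned at 0 with DESeq2 and RLE factors and -0.07 without those libraries.

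For the control lentivirus against scramble, NEGR1 lost its call at 0.18 with library size only, 0.38 with only the groups compared, 0.31, 0.43 and 0.38 with single controls and 0.44 without in-between libraries, and by single libraries ran from 0.17 to 0.51. NTM turned to -0.08 and LSAMP to -0.19 with library size only, NTM to -0.31 with scramble library 3 alone, LSAMP to -0.13 with library 1 alone and CNTN3 to 0.11 with library 2 alone. Library size alone moved the median of all genes in this comparison to -0.26.

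With 1 library left out, log2 fold changes with overexpression ran from 0 to 0.19 for LSAMP, -0.50 to 0.37 for NTM, -0.04 to 0.19 for OPCML and -0.04 to 0.16 for GAP43. They ran from -0.05 to 0.12 for LSAMP with siRNA-2, -0.33 to 0.34 for NTM and -0.04 to 0.08 for NEGR1 between the siRNAs, and -0.05 to 0.08 for LSAMP and -0.34 to 0.54 for NTM between the controls.

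Counts of genes moved more. With siRNA-1 1443 rose and 927 fell, but 346 and 261 against scramble library 1 alone, 763 and 364 against library 3 alone, 301 and 138 without in-between libraries, and 919 to 1954 and 531 to 1053 with 1 library left out. With siRNA-2 2378 rose and 2092 fell, but 922 and 943 against library 1, 1337 and 1049 against library 3, and 832 and 544 without in-between libraries. Between the siRNAs 1117 rose and 1382 fell, but 2055 rose with library size only, 2184 and 2637 with only these groups, 194 and 267 without in-between libraries, and 632 to 778 and 846 to 1013 with 1 library left out. With overexpression 4715 rose and 4434 fell, and 2783 and 2379 without in-between libraries. With library size only 70.1% of calls with siRNA-2 were rises, against 53.2%, and 66.3% between the siRNAs, against 44.7%. Fewer libraries were tested where some were left out; otherwise the cause was not tested. Depth limits NTM, at 6 to 28 reads per library. No paired analysis was possible because the table's columns are not tied to numbered samples and the titles share no numbers across groups.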

Other observations

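Several guidance genes changed with overexpression, some of which also differed between the siRNAs. NRP2, a semaphorin receptor, had 244 ± 20.1 CPM with the ATRNL1 lentivirus, against 129 ± 2.4 CPM with the control lentivirus (SD, n = 3 each; log2 fold change 0.92, SE 0.07, adjusted p = 9.37e-11). EFNB2, the ephrin B2 ligand, rose by 0.96 (SE 0.11, adjusted p = 7.06e-08), to 23.1 ± 4.81 CPM with the ATRNL1 lentivirus, against 11.9 ± 0.976 CPM with the control lentivirus. SEMA3A, the ligand semaphorin 3A, fell by 0.79 (SE 0.10, adjusted p = 7.45e-07), and the receptor ROBO1 fell by 1.00 (SE 0.11, adjusted p = 4.18e-08).

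ROBO2, a receptor for SLIT proteins, rose in each comparison, as CNTN1 did. It had 43.7 ± 2.63 CPM in siRNA-1 cells and 33.5 ± 2.99 CPM in siRNA-2 cells, against 21.4 ± 5.53 CPM with scramble (SD, n = 3 each; log2 fold changes 1.04 and 0.65). It had 34.1 ± 3.09 CPM with the ATRNL1 lentivirus, against 22 ± 0.3 CPM with the control lentivirus (0.63, SE 0.12, adjusted p = 8.84e-05). PCDH9, a protocadherin, fell by 0.47 with siRNA-2 (SE 0.07, adjusted p = 4.43e-05) and rose by 0.79 with overexpression (SE 0.07, adjusted p = 3.19e-09). It stood at 0.16 with siRNA-1 (SE 0.07, adjusted p = 0.186).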
